A study of Mus musculus with 12 samples.

Results

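The genes followed were those of 6 chemokines, Cxcl1, Cxcl2, Cxcl5, Ccl2, Ccl7 and Ccl20, whose products draw neutrophils, monocytes and some lymphocytes to a tissue. They were taken by gene name from a table of 56287 entries, and all 6 names were found. The cells were L929, an established line of mouse fibroblasts with a WT genotype, and RNA was sequenced from 4 groups of 3 libraries. The first group was mock. The second, HT-DNA, was transfected with HT-DNA by Lipofectamine 2000 for 6 h, at a labelled dose of 0.5 whose unit is garbled in the labels. The third, HT-DNA+AOA, received the same DNA and 0.5 mM AOA starting 1 h before it. The fourth, HT-DNA+AOA+Asp, received DNA, AOA and 20 mM Asp. The labels spell out none of these short forms. In this field HT-DNA usually stands for herring testis DNA, AOA for aminooxyacetate, an inhibitor of aminotransferases, and Asp for aspartate. The labels do not say if the mock cells were given Lipofectamine, and the comparison of HT-DNA with mock cannot tell the DNA and the reagent apart. Both groups with AOA also received HT-DNA, and no group with AOA alone, Asp alone, or HT-DNA and Asp without AOA was analysed here. Nothing states that the 3 libraries of a group came from separate cultures, so p-values measure only the spread between these libraries, which may be technical.

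Chemokines are small secreted proteins that guide leukocytes through G-protein-coupled receptors. Cxcl1, Cxcl2 and Cxcl5 belong to the ELR subfamily of CXC chemokines and call neutrophils through Cxcr2, Ccl2 and Ccl7 call monocytes through Ccr2, and Ccl20 calls cells that carry Ccr6. Fibroblasts are among the cells that release them after injury or infection, when IL-1, TNF, IL-17 or microbial ligands activate the transcription factor NF-kB. Several of their mRNAs are short-lived, which lets the amount of transcript rise and fall quickly. DNA in the cytosol is sensed by cGAS, which signals through STING to IRF3 and to NF-kB.

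Library totals lay between 19944571 and 27309291 estimated counts. Levels are given as CPM, estimated counts per 1000000 after TMM scaling of the library sizes. Levels of different genes are set against each other only as CPM per kb of the gene length in the deposited table. A fold change is the log2 ratio of 2 groups in a fit of all 12 libraries with edgeR. SE is an approximate standard error, the absolute log2 fold change divided by the square root of the F statistic of edgeR's test. A gene was called when edgeR's quasi-likelihood test gave a Benjamini-Hochberg adjusted p under 0.05 over 14694 genes tested. Cxcl1, Cxcl2, Ccl2 and Ccl7 passed the filter on low counts in every group, Cxcl5 did not pass, and Ccl20 passed only through its counts in the HT-DNA+AOA group. Ccl20 could therefore enter the test only by being high in that group, and its calls against it add nothing to a count of members. In RNA from whole cultures, fewer cells of a kind and less RNA per cell cannot be told apart.

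Cxcl1 and Cxcl2 are neighbouring genes on mouse chromosome 5, on which Cxcl5 also lies. Ccl2 and Ccl7 are neighbours on chromosome 11, and Ccl20 lies on chromosome 1. RefSeq's promoter table held 3 of the 6 genes. Their upstream stretches are shown as the context of the genes in that table, and expression was not tested against them. Each stretch runs from 200 to 31 bases before the start site, 5′ to 3′ on the + strand of GRCm38.p6, and capitals mark a match to the NF-kB consensus. The stretches lie at chr5:90891045-90891214, chr5:90903699-90903868 and chr1:83116566-83116735.
Cxcl1: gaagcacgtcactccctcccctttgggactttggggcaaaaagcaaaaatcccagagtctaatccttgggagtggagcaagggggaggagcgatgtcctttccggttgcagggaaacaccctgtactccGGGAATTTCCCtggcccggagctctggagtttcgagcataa
Cxcl2: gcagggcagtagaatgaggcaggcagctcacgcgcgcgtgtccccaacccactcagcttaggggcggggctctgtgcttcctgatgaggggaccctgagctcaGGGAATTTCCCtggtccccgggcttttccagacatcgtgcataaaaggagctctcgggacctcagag
Ccl20: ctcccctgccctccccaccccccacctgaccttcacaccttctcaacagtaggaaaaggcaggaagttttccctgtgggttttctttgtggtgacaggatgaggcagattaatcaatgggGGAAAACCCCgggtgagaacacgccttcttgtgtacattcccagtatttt

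The capitals in Cxcl1 and in Cxcl2 are the same letters, and they hold 2 overlapping matches each, on opposite strands. The match lies from -71 to -61 in Cxcl1 and from -97 to -87 in Cxcl2, counted in bases from the start site. The longest run of letters that the Cxcl1 and Cxcl2 stretches share is 14 bases long, GGGAATTTCCCTGG, and it begins with this match. In Ccl20 the match is on the minus strand, from -80 to -71. In the 250 bases before the start site, searched on both strands, 7.25% of 32851 RefSeq promoters held an NF-kB consensus match. The TATA box letters TATAAA were held by 12.4% of the promoters. The AP-1 motif, TGANTCA, was held by 6.75% and the core of the interferon-stimulated response element, GAAANNGAAA, by 2.98%. None of these 3 was found in the same 250 bases of Cxcl1, Cxcl2 or Ccl20. A match is a description of the letters and not of a bound factor.

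Among the neutrophil chemokines, Cxcl1 stood at 147, 148 and 167 CPM in the mock libraries and at 154, 151 and 153 CPM with HT-DNA. With HT-DNA+AOA it reached 992, 1361 and 1344 CPM. With HT-DNA+AOA+Asp it was at 109, 97.8 and 105 CPM. The HT-DNA+AOA libraries lay above all others, replicate 1 being the lowest of them, and the HT-DNA+AOA+Asp libraries lay below all mock and HT-DNA libraries. Cxcl2, which acts on the same receptor as Cxcl1, was at 9.99, 11.04 and 11.9 CPM in mock and 10.2, 10.8 and 8.40 CPM with HT-DNA. It reached 119, 175 and 172 CPM with HT-DNA+AOA, and stood at 8.56, 8.50 and 8.25 CPM after Asp was added. Replicate 1 was again the lowest HT-DNA+AOA library, and no library of another group came near it. The deposited counts of Cxcl2 had fractional parts of up to 0.07 of a count, while those of the other 5 genes were whole. Cxcl5, the third ELR chemokine of the set, was close to silent. It had 0 counts in all 6 mock and HT-DNA libraries, 1 count in each of 2 HT-DNA+AOA libraries and 1 count in each of 2 HT-DNA+AOA+Asp libraries. A count of 0 allows up to 3 counts in a library, or 0.114 to 0.150 CPM in the mock and HT-DNA libraries, and no fold is given for Cxcl5.

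Of the monocyte chemokines, Ccl2 was at 288, 273 and 293 CPM in mock and at 452, 478 and 444 CPM with HT-DNA. It rose to 1350, 1475 and 1625 CPM with HT-DNA+AOA and was at 418, 397 and 429 CPM with HT-DNA+AOA+Asp. Each group of Ccl2 values was separate from the 3 others. Ccl7, the neighbour of Ccl2 and a ligand of the same receptor, was at 140, 133 and 138 CPM in mock and at 220, 247 and 249 CPM with HT-DNA. It stood at 723, 649 and 772 CPM with HT-DNA+AOA and at 230, 220 and 236 CPM with HT-DNA+AOA+Asp. For Ccl7 the HT-DNA and HT-DNA+AOA+Asp libraries overlapped, mock was below them and HT-DNA+AOA above. Ccl20 was counted 4, 2 and 6 times in the mock libraries and 5, 1 and 2 times with HT-DNA. In the HT-DNA+AOA libraries it had 42, 106 and 77 counts, and in the HT-DNA+AOA+Asp libraries 1, 1 and 3 counts. These counts correspond to 2.09 to 4.07 CPM with HT-DNA+AOA and to at most 0.232 CPM in any other library.

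**Figure D1:**
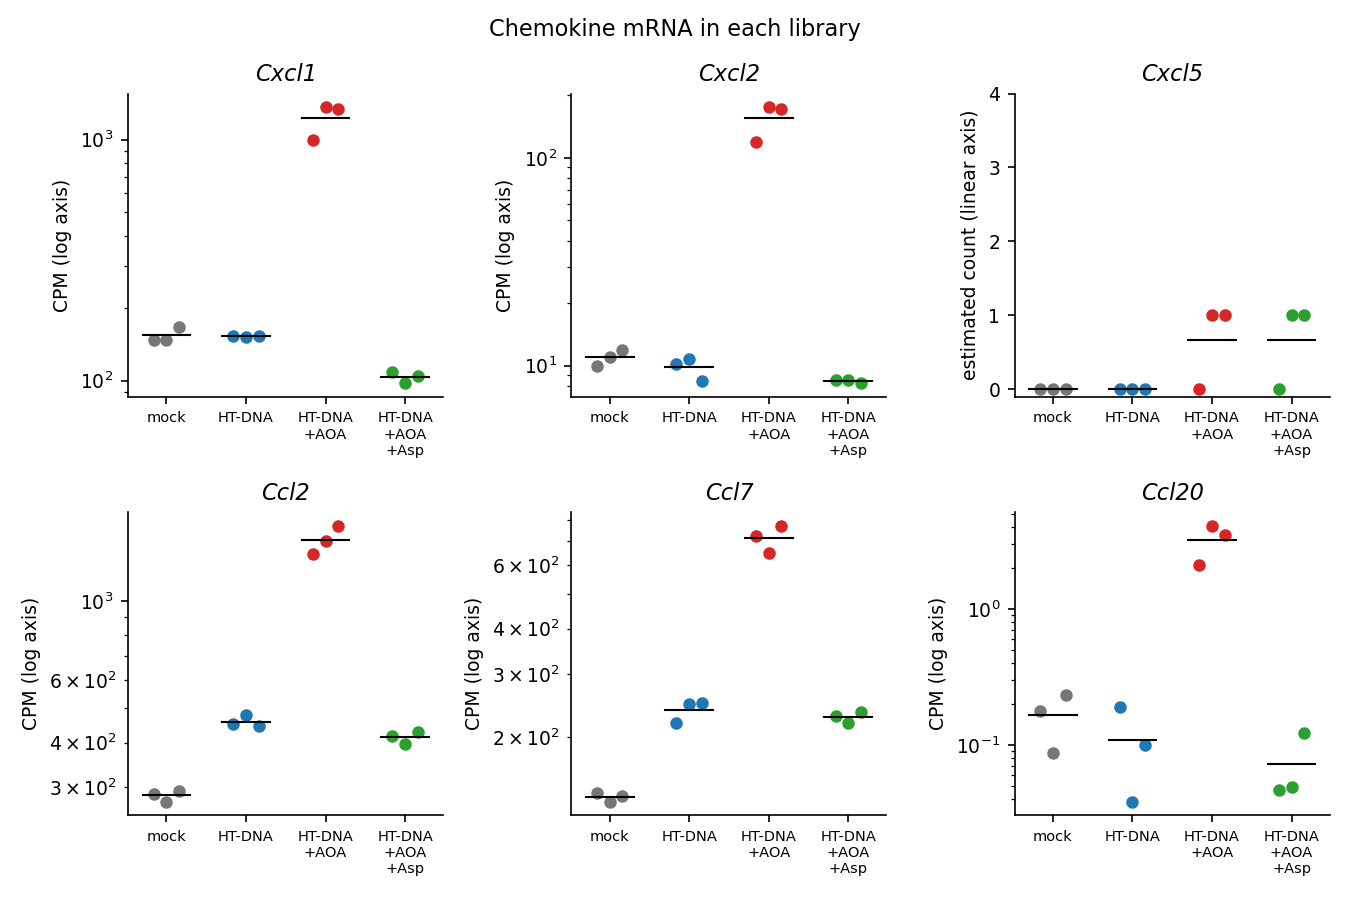
Level of each chemokine gene in the 12 libraries, as CPM on a log axis (for Cxcl5, estimated counts on a linear axis). Points are libraries, in the order of replicates 1 to 3 within a group, and lines are group means. For Cxcl1, Cxcl2, Ccl2 and Ccl7 the 3 HT-DNA+AOA libraries lie above all others. The share of all genes with such a separation was not counted, while 25.5% of them were called higher in HT-DNA+AOA than in HT-DNA. Ccl20 is also highest in HT-DNA+AOA, but it passed the filter on low counts only through that group. Cxcl5 does not exceed 1 count in any library.

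HT-DNA was compared with mock to see how transfected cells differed from mock cells in the absence of AOA, where the DNA and the reagent cannot be told apart. Both monocyte chemokines rose and neither of the neutrophil chemokines tested was called. Ccl2 went from 284 ± 10.2 to 458 ± 17.7 CPM (SD, n = 3), a 1.61-fold rise (log2 fold change 0.69 with SE 0.056, adjusted p = 5.04e-09 by edgeR). Ccl7 went from 137 ± 3.78 to 239 ± 16.5 CPM, a 1.74-fold rise (log2 fold change 0.80 with SE 0.059, adjusted p = 2.60e-09 by edgeR). Cxcl1 was at 154 ± 11.1 CPM in mock and 153 ± 1.24 CPM with HT-DNA, a log2 fold change of -0.016 (SE 0.11, edgeR adjusted p = 0.933) whose sign turned without mock replicate 3 (0.046). Cxcl2 was at 10.97 ± 0.952 and 9.81 ± 1.26 CPM, a log2 fold change of -0.15 (SE 0.20, edgeR adjusted p = 0.589). Ccl20 was counted 8 times in all with HT-DNA and 12 times in mock, giving a ratio of 0.658 with a 95% counting interval of 0.233 to 1.75. Of the 4 genes that passed the filter in every group, 2 were thus called higher and 0 lower. Of all genes tested, 21.2% were higher and 19.8% lower. At an unadjusted p under 0.05, and by DESeq2, no member was called lower either. With library size alone as scaling, 39.3% of all calls in this comparison were higher in place of 51.7%. Rises at least as large as that of Ccl2 were seen for 3.33% of the genes tested.

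HT-DNA+AOA was compared with HT-DNA to see what AOA changed in cells that received DNA. The 4 genes that passed the filter in every group rose, and Cxcl1 and Cxcl2 rose by larger fitted folds than Ccl2 and Ccl7. Cxcl2 went from 9.81 ± 1.26 to 156 ± 31.6 CPM (SD, n = 3), a 15.7-fold rise (log2 fold change 3.98 with SE 0.16, adjusted p = 1.15e-08 by edgeR). Cxcl1 reached 1232 ± 209 CPM, an 8.08-fold rise (log2 fold change 3.01 with SE 0.12, adjusted p = 6.45e-09 by edgeR). Ccl2 reached 1483 ± 138 CPM, 3.24-fold above HT-DNA (log2 fold change 1.70 with SE 0.057, adjusted p = 2.76e-15 by edgeR). Ccl7 reached 715 ± 61.6 CPM, 2.996-fold above HT-DNA (log2 fold change 1.58 with SE 0.059, adjusted p = 4.10e-14 by edgeR). Rises as large as that of Cxcl2 were seen for 13 of the 14694 genes tested, itself included, and as large as that of Cxcl1 for 31. Ccl20 went from 8 to 225 counts, a ratio of 29.8 (95% counting interval 14.9 to 69.9). Its fitted log2 fold change was 4.80 (SE 0.44, edgeR adjusted p = 6.52e-09), or 5.51 without HT-DNA replicate 1, which held 5 of the 8 counts. Of these 4 genes all 4 were called higher and 0 lower, beside 25.5% of all genes higher and 26.5% lower, with Ccl20 left out of the count, and 0 were lower at an unadjusted p under 0.05 or by DESeq2.

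HT-DNA+AOA+Asp was compared with HT-DNA+AOA to see what Asp changed in the presence of AOA. The same 4 genes fell, again by larger fitted folds for Cxcl1 and Cxcl2 than for Ccl2 and Ccl7. Cxcl2 fell from 156 ± 31.6 to 8.44 ± 0.166 CPM (SD, n = 3), 18.5-fold lower (log2 fold change -4.21 with SE 0.17, adjusted p = 8.15e-09 by edgeR). Cxcl1 fell to 104 ± 5.49 CPM, 11.9-fold lower (log2 fold change -3.57 with SE 0.12, adjusted p = 1.88e-09 by edgeR). Ccl2 fell to 415 ± 16.4 CPM, 3.58-fold lower (log2 fold change -1.84 with SE 0.057, adjusted p = 1.95e-15 by edgeR). Ccl7 fell to 228 ± 8.02 CPM, 3.13-fold lower (log2 fold change -1.65 with SE 0.059, adjusted p = 2.17e-14 by edgeR). Falls as large as that of Cxcl2 were seen for 12 genes tested and as large as that of Cxcl1 for 26. Ccl20 went from 225 to 5 counts, a ratio of 0.0229 (95% counting interval 0.00737 to 0.0542). Its fitted log2 fold change was -5.33 (SE 0.47, edgeR adjusted p = 3.98e-09), or -5.92 without HT-DNA+AOA+Asp replicate 3, which held 3 of the 5 counts. Without Ccl20, 0 of the 4 genes were called higher and 4 lower, beside 28.3% of all genes higher and 26.4% lower, and 0 were higher at an unadjusted p under 0.05 or by DESeq2. This comparison shares its HT-DNA+AOA libraries with the one before, so the rise and the fall are not independent measurements.

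**Figure D2:**
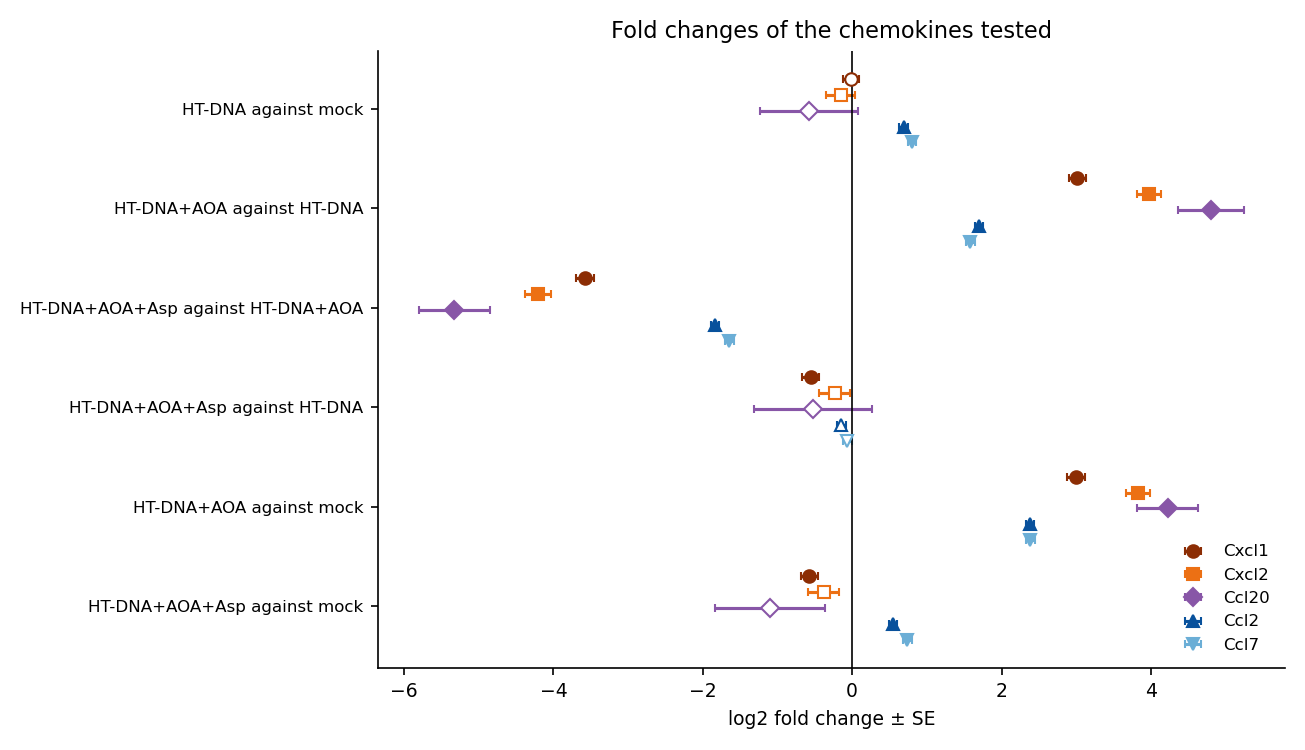
Fitted log2 fold change with its SE (bars) of the 5 chemokine genes tested, in each of 6 comparisons. Filled symbols are called at an edgeR adjusted p under 0.05 and open symbols are not. Cxcl1 and Cxcl2 lie farther from 0 than Ccl2 and Ccl7 in the 3 comparisons that set HT-DNA+AOA against another group. Ccl20 passed the filter on low counts only through HT-DNA+AOA, so its distance from 0 in those comparisons was favoured by the filter. Only Ccl2 and Ccl7 are called for HT-DNA against mock.

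HT-DNA+AOA+Asp was also set against HT-DNA, to see how far the levels with both agents lay from those with DNA alone. Cxcl1 ended below the HT-DNA level, while the other members tested were not called. Cxcl1 was at 104 ± 5.49 against 153 ± 1.24 CPM (SD, n = 3), 1.47-fold lower (log2 fold change -0.56 with SE 0.11, adjusted p = 0.00844 by edgeR). Ccl2 was at 415 ± 16.4 against 458 ± 17.7 CPM, a log2 fold change of -0.14 (SE 0.056, edgeR adjusted p = 0.0797). All 3 of its HT-DNA+AOA+Asp libraries lay below the 3 HT-DNA libraries, and DESeq2 did call it lower (adjusted p = 0.0413). Cxcl2 had a log2 fold change of -0.23 (SE 0.21, edgeR adjusted p = 0.494). Ccl7 had a log2 fold change of -0.063 (SE 0.058, edgeR adjusted p = 0.495). Ccl20 had 5 counts against 8, a ratio of 0.682 (95% counting interval 0.176 to 2.37), and its fitted direction turned without HT-DNA replicate 1. Thus 1 of the 4 genes that passed the filter in every group was called lower and 0 higher. Of all genes, 10.4% were higher and 8.15% lower. No member was higher at an unadjusted p under 0.05 or by DESeq2. The number of all genes called here, 2719, depended on single libraries and was 1689 without HT-DNA replicate 2.

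Against mock, the HT-DNA+AOA levels were 7.99-fold higher for Cxcl1, 14.2-fold for Cxcl2, 5.21-fold for Ccl2 and 5.22-fold for Ccl7. The edgeR adjusted p of these rises lay between 6.11e-18 and 7.14e-09. Ccl20 had 225 counts against 12, a ratio of 19.6 (95% counting interval 11.01 to 38.5). Without Ccl20, 4 of the 4 genes were called higher and 0 lower, beside 30.4% of all genes higher and 30.7% lower, and 0 were lower at an unadjusted p under 0.05 or by DESeq2. With library size alone, 37.3% of all calls here were higher in place of 49.7%, and the median of all genes shifted by -0.12 on the log2 scale, which is small beside these rises. With Asp added, Ccl2 and Ccl7 stayed above mock, with log2 fold changes of 0.54 (SE 0.056, edgeR adjusted p = 2.92e-07) and 0.74 (SE 0.060, edgeR adjusted p = 2.00e-08). Cxcl1 was below mock, with a log2 fold change of -0.57 (SE 0.11, edgeR adjusted p = 0.00337). Cxcl2 was at 8.44 ± 0.166 against 10.97 ± 0.952 CPM (SD, n = 3) with no overlap, and was not called (log2 fold change -0.38 with SE 0.20, adjusted p = 0.188 by edgeR). It was called in a fit of these groups alone (adjusted p = 0.00492), as it was when HT-DNA+AOA replicate 1 was left out (adjusted p = 0.00284). Ccl20 had 5 counts against 12, a ratio of 0.449 (95% counting interval 0.124 to 1.37). Of the 4 genes that passed the filter in every group, 2 were called higher and 1 lower, beside 18.9% of all genes higher and 15% lower. The share of all calls that were higher went from 55.8% to 39% with library size alone.

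Per kb of gene length, Ccl2 was the most abundant of the 6 in every group. In mock it was at 349.9 ± 12.5 CPM per kb (SD, n = 3), which placed it at rank 201 of the 14694 genes tested. Ccl7 at 171 and Cxcl1 at 162 CPM per kb followed, and their mock libraries overlapped. Cxcl2 was at 9.89, Ccl20 at 0.117 and Cxcl5 at 0 CPM per kb. With HT-DNA the order became Ccl2 at 563, Ccl7 at 298 and Cxcl1 at 160.1 CPM per kb, with no overlap between these. With HT-DNA+AOA, Cxcl1 at 1293 CPM per kb moved above Ccl7 at 892, and Ccl2 at 1825 ranked 21 of all genes tested. Cxcl1 ranked 40, Ccl7 76 and Cxcl2, at 140.3 CPM per kb, 577. With HT-DNA+AOA+Asp the order of the HT-DNA group returned, with Ccl2 at 510.0, Ccl7 at 285 and Cxcl1 at 109 CPM per kb, where Cxcl1 ranked 699.

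The balance between neutrophil and monocyte chemokines was followed as a ratio within each library, which does not depend on how libraries are scaled. The ratio of Cxcl1 to Ccl2, in counts per kb, was 0.437, 0.463 and 0.487 in mock and 0.290, 0.270 and 0.293 with HT-DNA. With HT-DNA+AOA it was 0.627, 0.787 and 0.706, and with HT-DNA+AOA+Asp 0.222, 0.210 and 0.208. The 4 groups did not overlap. The ratio was lower with HT-DNA than in mock, higher than in mock with HT-DNA+AOA, and lowest with HT-DNA+AOA+Asp. In each of the 6 comparisons of this ratio the two-sided exact permutation p was 0.1, the smallest that 3 against 3 libraries allow, so it could not pass 0.05. The ratio of Cxcl2 to Cxcl1 was 0.103, 0.111 and 0.110 with HT-DNA+AOA, above the 0.0473 to 0.0640 of the mock and HT-DNA libraries and the 0.0677 to 0.0747 of the HT-DNA+AOA+Asp libraries. All 3 HT-DNA+AOA libraries were above the other 9, with an exact permutation p of 0.1 against each other group. The ratio of Ccl7 to Ccl2 had means of 0.489 ± 0.00949 in mock, 0.529 ± 0.0382 with HT-DNA, 0.491 ± 0.0489 with HT-DNA+AOA and 0.559 ± 0.00251 with HT-DNA+AOA+Asp (SD, n = 3). Its HT-DNA+AOA libraries overlapped those of mock (exact permutation p = 1) and of HT-DNA (exact permutation p = 0.4). Its HT-DNA+AOA+Asp libraries lay above those of HT-DNA+AOA and of mock with no overlap (exact permutation p = 0.1 each) and overlapped those of HT-DNA (exact permutation p = 0.4).

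**Figure D3:**
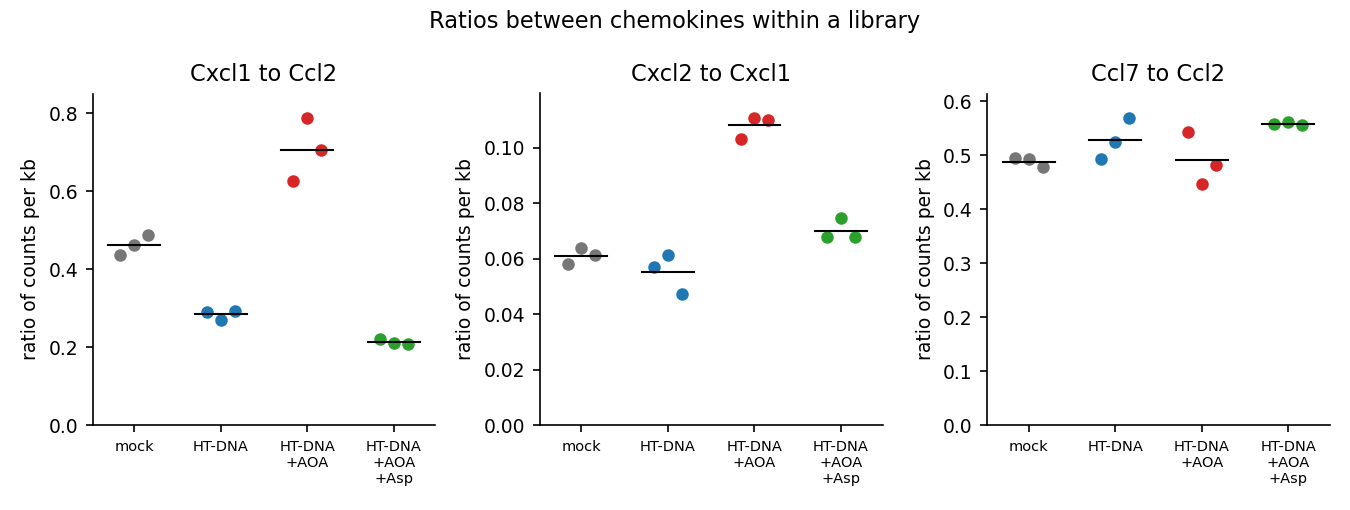
Ratio of the counts per kb of 2 chemokine genes within each library, on linear axes from 0. Points are libraries and lines are group means. The ratio of Cxcl1 to Ccl2 separates the 4 groups, the ratio of Cxcl2 to Cxcl1 sets HT-DNA+AOA apart, and the ratio of Ccl7 to Ccl2 stays between 0.447 and 0.569.

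For each member tested, the genes with the most similar pattern over the 12 libraries were sought among 9581 genes with a mean of 5 CPM or more, by the root mean square difference of centred log2 CPM. For Cxcl1 the nearest was Lcn2, the iron-siderophore binding protein lipocalin 2, at a difference of 0.21, followed by Gvin2 at 0.28 and Il23a, a subunit of interleukin 23, at 0.37. Lcn2 was at 27.3 ± 1.03 CPM in mock, 25.0 ± 1.15 with HT-DNA, 184 ± 7.09 with HT-DNA+AOA and 22.1 ± 1.93 with HT-DNA+AOA+Asp (SD, n = 3). The same 3 genes were nearest to Cxcl2 and to Ccl20, at differences from 0.50 to 0.73. For Ccl2 the nearest were Rnd1 at 0.12, Stk40 at 0.17 and Rab30 at 0.20. Rnd1 was at 19.5 ± 0.958 CPM in mock, 32.7 ± 2.09 with HT-DNA, 89.1 ± 13.7 with HT-DNA+AOA and 29.8 ± 0.976 with HT-DNA+AOA+Asp. For Ccl7 the nearest were Rnd1 at 0.14, Neurl3 at 0.18 and Ddx58, the RNA sensor RIG-I, at 0.19. The members themselves were not among the 9581 genes searched. Ccl2 and Ccl7 were nearer to each other, at 0.11, than to any of these. Cxcl1 and Cxcl2 differed by 0.38, as did Cxcl2 and Ccl20. Cxcl2 and Ccl20 were thus nearer to each other than to Lcn2, Gvin2 or Il23a. The log2 CPM of Ccl20 outside HT-DNA+AOA rest on few counts and depend on the prior count of 2. These differences are descriptions over 12 libraries of 4 groups and carry no test.

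Other chemokines were read from lists of genes. Of the other ELR chemokines, Cxcl3 was the 1 of 4 that was tested. It had 7 counts in mock, 23 with HT-DNA, 237 with HT-DNA+AOA and 16 with HT-DNA+AOA+Asp. It passed the filter on low counts only through the HT-DNA+AOA group, so that its calls against that group were favoured by the filter. It was called with AOA (log2 fold change 3.38 with SE 0.42, adjusted p = 1.01e-06 by edgeR) and with Asp (-3.80, SE 0.45, edgeR adjusted p = 4.21e-07), and not with HT-DNA (1.68, SE 0.70, edgeR adjusted p = 0.0620). The rise with HT-DNA was called by edgeR without mock replicate 3 (log2 fold change 2.74, adjusted p = 0.0203) or HT-DNA replicate 1 (2.04, adjusted p = 0.0258), without the filter (adjusted p = 0.0220) and by DESeq2 (adjusted p = 0.0400). Without HT-DNA replicate 3 the log2 fold change with AOA was 3.99. Cxcl2 and Cxcl3 are close in sequence, and estimated counting can share reads between them. The deposited counts of Cxcl2 lay within 0.07 of a whole number, and such sharing was not tested. Of 13 other CC and CX3C chemokines 5 were tested. Ccl4 went from 3 counts in mock to 119 with HT-DNA, a ratio of 39.2 (95% counting interval 13.1 to 193). Its fitted log2 fold change of 5.11 (SE 0.43, edgeR adjusted p = 4.99e-09) was 5.99 without mock replicate 1 and 4.53 without mock replicate 3. It had 539 counts with HT-DNA+AOA and 75 with HT-DNA+AOA+Asp, with log2 fold changes of 2.26 (SE 0.19, edgeR adjusted p = 2.64e-09) for AOA and -2.78 (SE 0.21, edgeR adjusted p = 2.44e-10) for Asp. Ccl3, the neighbour of Ccl4 on chromosome 11, rose with AOA from 13 to 54 counts (log2 fold change 2.10 with SE 0.46, adjusted p = 0.000577 by edgeR) and had 57 counts after Asp (log2 fold change 0.14 with SE 0.37, adjusted p = 0.774 by edgeR). It was not called with HT-DNA (log2 fold change -0.13, SE 0.57). Ccl3 passed the filter on low counts only through the HT-DNA+AOA and HT-DNA+AOA+Asp groups, so its call with AOA may have been favoured by the filter. Cx3cl1, the membrane-bound chemokine fractalkine, rose with HT-DNA from 11.5 to 18.5 CPM (log2 fold change 0.68, SE 0.095), was not called with AOA (0.17, SE 0.090, or 0.25 and called at an adjusted p = 0.0269 by edgeR without HT-DNA+AOA replicate 1) and fell with Asp (-0.37, SE 0.092). Ccl25 was not called with HT-DNA (log2 fold change -0.10, SE 0.083), rose with AOA (0.39, SE 0.082) and was not called with Asp (-0.15, SE 0.081). Ccl9 was not called in any of these comparisons, with log2 fold changes of -0.16, 0.061 and 0.32. Cxcl16, the only tested gene of 7 other CXC chemokines, fell with HT-DNA (log2 fold change -0.48, SE 0.15), rose with AOA (0.62, SE 0.15) and fell with Asp (-0.63, SE 0.15). Its fall with HT-DNA was not called without mock replicate 1 or HT-DNA replicate 3.

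Cytokines and growth factors that act on myeloid cells were mostly called with AOA and with Asp. Of 11 listed, 8 were tested. With HT-DNA, 3 rose and 5 were not called (median log2 fold change 0.29), with AOA 6 rose and 1 fell (median 1.41), and with Asp 1 rose and 6 fell (median -1.65). Between HT-DNA+AOA+Asp and HT-DNA, 7 of the 8 were not called and 1 was lower, beside 10.4% of all genes higher and 8.15% lower. Over all genes tested the medians were -0.011, 0.0035 and -0.0046, with 21.2% higher and 19.8% lower for HT-DNA, 25.5% and 26.5% for AOA, and 28.3% and 26.4% for Asp. Il6 had 1 count in mock, 29 with HT-DNA, 143 with HT-DNA+AOA and 27 with HT-DNA+AOA+Asp. Its log2 fold change was 2.34 (SE 0.37) with AOA and -2.33 (SE 0.37) with Asp. The ratio of HT-DNA to mock was 28.6 (95% counting interval 4.75 to 1169), and the fitted log2 fold change of 4.40 (SE 0.82, edgeR adjusted p = 0.000161) was 6.23 without mock replicate 3, which held the mock count. Il33, an alarmin of the IL-1 family, had 12, 74, 339 and 62 counts in the same order of groups, and was called in all 3 comparisons. Lif, a cytokine of the IL-6 family, stood at 13.0 ± 0.799 CPM with HT-DNA, 40.2 ± 9.91 with HT-DNA+AOA and 9.92 ± 0.497 with HT-DNA+AOA+Asp (SD, n = 3). Csf1, the growth factor of macrophages, was at 1358 ± 23.1 CPM in mock, 1806 ± 21.1 with HT-DNA, 4555 ± 506 with HT-DNA+AOA and 1465 ± 18.5 with HT-DNA+AOA+Asp. The 1 gene that fell with AOA was Il11, named after its values were seen, at 1.81 ± 0.309 CPM with HT-DNA and 1.14 ± 0.338 CPM with HT-DNA+AOA. It was also the 1 gene that rose with Asp, to 2.47 ± 0.169 CPM.

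Receptors and adaptors that lead to chemokine transcription did not move in 1 direction. Of 19 tested, 8 rose and 5 fell with HT-DNA, 7 rose and 7 fell with AOA, and 6 rose and 9 fell with Asp. The shares of all genes called were 21.2% higher and 19.8% lower, 25.5% and 26.5%, and 28.3% and 26.4% in the same order. Between HT-DNA+AOA+Asp and HT-DNA, 15 were not called and 4 were lower, beside 10.4% of all genes higher and 8.15% lower. Il1r1, the IL-1 receptor, fell with HT-DNA from 13.9 ± 1.39 to 9.44 ± 1.38 CPM (SD, n = 3), rose with AOA to 19.2 ± 2.99 and fell with Asp to 8.35 ± 0.428. Il17ra, a chain of the IL-17 receptor, rose with AOA (log2 fold change 0.74 with SE 0.050, adjusted p = 7.20e-11 by edgeR). The kinase Irak4 fell with AOA (log2 fold change -0.85 with SE 0.14, adjusted p = 2.51e-05 by edgeR). Tlr4, the receptor for lipopolysaccharide, fell with HT-DNA (log2 fold change -0.95, SE 0.077) and rose with Asp (0.92, SE 0.087), and Tlr2 rose with HT-DNA (0.53, SE 0.081). Traf3ip2, the adaptor Act1 of IL-17 receptors, fell with Asp (log2 fold change -0.89, SE 0.14).

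Feedback genes and inhibitors of NF-kB were also counted. Of the 6 tested of 8 listed, 3 rose with HT-DNA (median log2 fold change 0.20), 5 rose with AOA (median 0.60) and 6 fell with Asp (median -0.67), the others not being called. Of all genes, 21.2% were higher with HT-DNA, 25.5% higher with AOA and 26.4% lower with Asp. Between HT-DNA+AOA+Asp and HT-DNA, 4 were not called and 2 were lower, beside 10.4% of all genes higher and 8.15% lower. Nfkbiz, an atypical inhibitor that also acts as a coactivator, went from 58.7 ± 1.33 to 149 ± 12.1 CPM with AOA and to 52.6 ± 0.837 CPM with Asp (SD, n = 3). Its log2 fold changes were 1.34 (SE 0.054, edgeR adjusted p = 1.55e-14) and -1.50 (SE 0.055, edgeR adjusted p = 4.23e-15). Nfkbia, which encodes IkB-alpha, rose with HT-DNA (log2 fold change 0.51, SE 0.045), rose further with AOA (0.95, SE 0.044) and fell with Asp (-1.11, SE 0.044). Nfkbie rose with AOA (log2 fold change 0.74, SE 0.13) and fell with Asp (-0.83, SE 0.14). With HT-DNA, the ubiquitin-editing enzyme Tnfaip3 rose by 0.56 (SE 0.12) and its partner Tnip1 by 0.26 (SE 0.050) on the log2 scale.

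Regulators of the stability of chemokine mRNAs were mixed. Of 12 tested, 6 rose and 1 fell with HT-DNA (median log2 fold change 0.18), 4 rose and 3 fell with AOA (median 0.059), and 4 rose and 5 fell with Asp (median 0.022). Of all genes, 21.2% were higher and 19.8% lower with HT-DNA, 25.5% and 26.5% with AOA, and 28.3% and 26.4% with Asp. Between HT-DNA+AOA+Asp and HT-DNA, 8 were not called, 1 was higher and 3 were lower, beside 10.4% of all genes higher and 8.15% lower. Arid5a, which stabilises inflammatory transcripts such as that of Il6, went from 14.6 ± 1.12 to 37.7 ± 4.97 CPM with AOA (log2 fold change 1.37 with SE 0.092, adjusted p = 7.19e-11 by edgeR) and to 16.7 ± 1.56 CPM with Asp (SD, n = 3). Zc3h12a, the RNase Regnase-1 that degrades such transcripts, fell with Asp from 60.1 ± 3.24 to 33.9 ± 1.87 CPM (log2 fold change -0.83 with SE 0.062, adjusted p = 2.89e-10 by edgeR). Zfp36l2, a decay factor of AU-rich mRNAs, fell with Asp (log2 fold change -0.75, SE 0.11). The kinase Mapk14, or p38-alpha, fell with AOA (log2 fold change -0.68, SE 0.043), as did the RNA-binding protein Tial1 (-0.53, SE 0.048). With HT-DNA, the RNA-binding proteins Elavl1 (log2 fold change 0.47, SE 0.047) and Hnrnpd (0.41, SE 0.060) rose and Zfp36l1 fell (-0.57, SE 0.16).

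**Figure D4:**
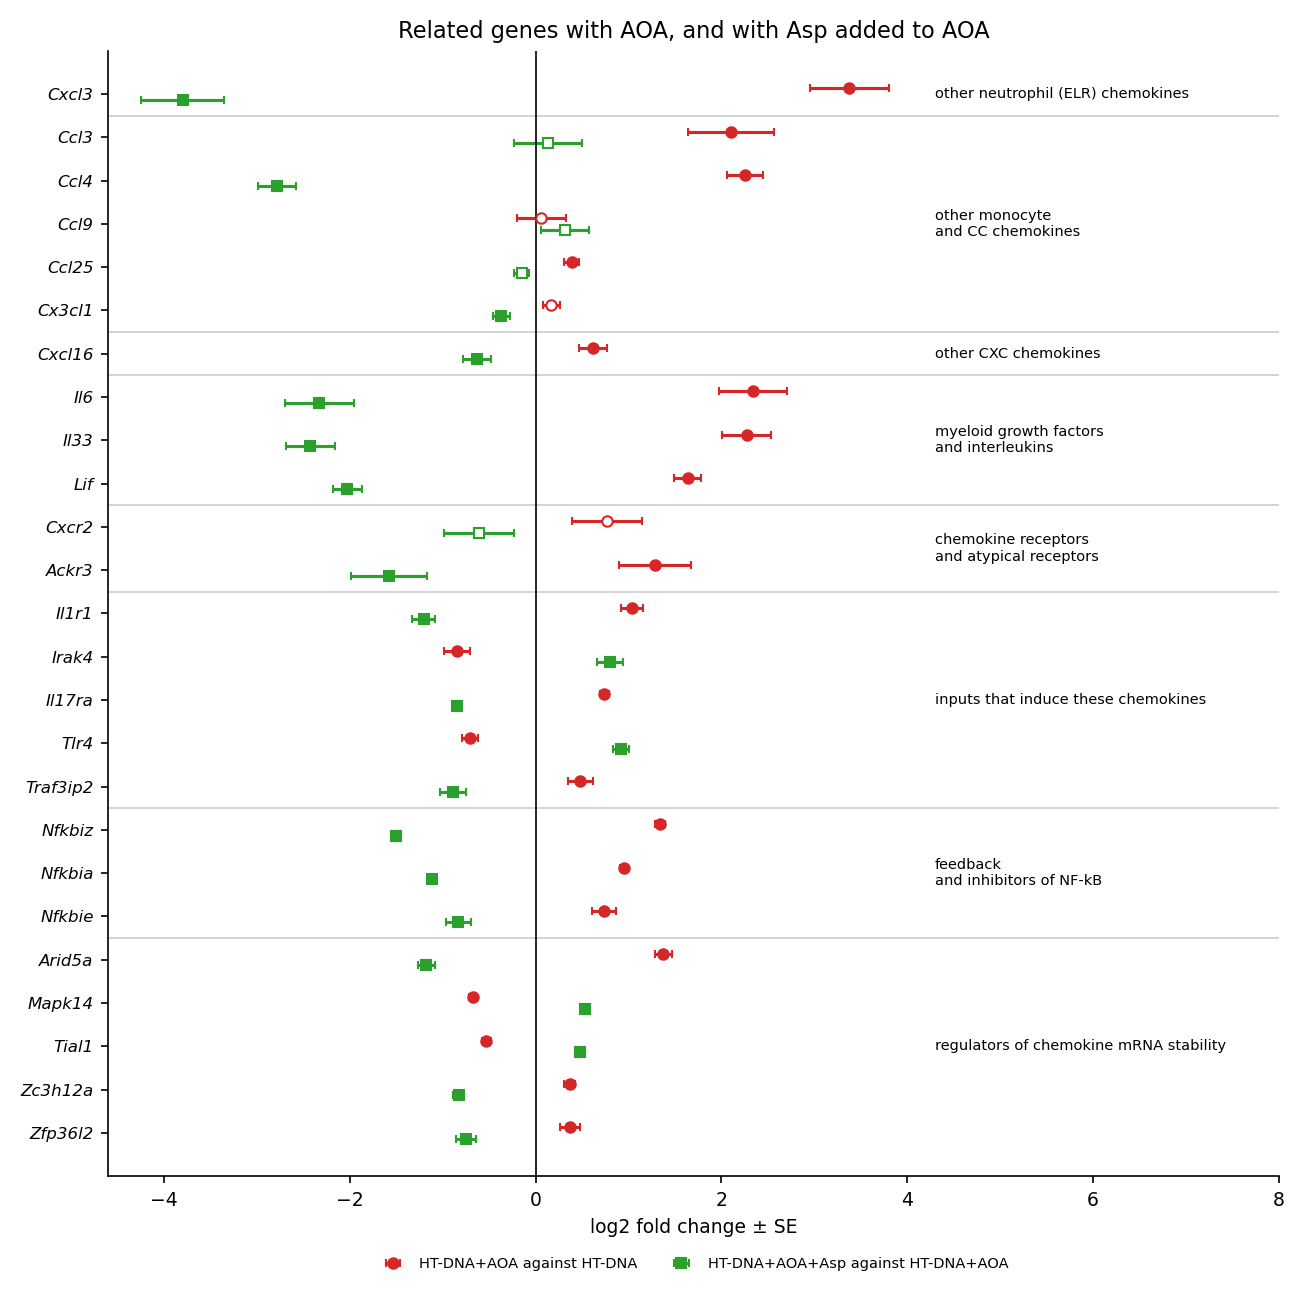
Fitted log2 fold change with its SE (bars) of genes related to the chemokines, grouped by list, for AOA (HT-DNA+AOA against HT-DNA) and for Asp (HT-DNA+AOA+Asp against HT-DNA+AOA). Filled symbols are called at an edgeR adjusted p under 0.05. The comparisons share the HT-DNA+AOA libraries. Cxcl3, Ccl4, Il6, Il33, Lif, Nfkbiz, Nfkbia and Arid5a lie on the side of the chemokines in both, Ccl3 and Ccl25 are called with AOA and not with Asp, Cx3cl1 with Asp and, in the fit of all 12 libraries, not with AOA, and Irak4, Tlr4, Mapk14 and Tial1 lie on the other side.

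Chemokine receptors and atypical receptors were scarce in the same libraries. The 10 listed were not limited to receptors of the 6 members, and Ackr3 is not among the receptors named for the members above. Cxcr1 and Ccr6 had 0 counts in all 12 libraries, and Ccr2 had 2 counts in all. Cxcr2 was tested, with 64 counts in the mock group, 36 with HT-DNA, 57 with HT-DNA+AOA and 37 with HT-DNA+AOA+Asp. It was not called in these steps, with log2 fold changes of -0.86 (SE 0.37, edgeR adjusted p = 0.0699), 0.77 (SE 0.38, edgeR adjusted p = 0.0903) and -0.61 (SE 0.37, edgeR adjusted p = 0.178). Without HT-DNA replicate 1 the first and the second were called (adjusted p = 0.0376 and 0.0446). Ackr3, an atypical receptor, went from 37 to 86 counts with AOA (log2 fold change 1.28 with SE 0.39, adjusted p = 0.00847 by edgeR, or 0.0538 without HT-DNA replicate 1) and to 28 counts with Asp (-1.57, SE 0.41, edgeR adjusted p = 0.00238, or a log2 fold change of -2.36 without HT-DNA+AOA+Asp replicate 3). Its direction with HT-DNA (log2 fold change 0.19, SE 0.44) turned without HT-DNA replicate 2.

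The labelled cell type was checked against marker genes. Of 12 fibroblast markers 8 passed the filter, while Thy1, Dcn, Lum and Fap did not. Of the 12, 2 had at most 3 counts in every library. The summed level of the 12 was 4940 to 6048 CPM over the 12 libraries, with Vim alone at 2843 ± 12.5 CPM in mock (SD, n = 3). Of 14 neutrophil, monocyte and macrophage markers 5 passed, namely Itgb2, Cd14, Lyz2, Ly6c2 and Cd68. Of these, Itgb2 and Cd68 passed in every group. The leukocyte antigen Ptprc had at most 1 count in any library, Adgre1 and S100a9 had 0 counts in all 12, and 7 of the 14 had at most 3 counts in every library. The summed level of the 14 was 291 to 316 CPM in mock, 249 to 258 with HT-DNA, 321 to 363 with HT-DNA+AOA and 249 to 261 with HT-DNA+AOA+Asp. Nearly all of it was Cd68, a lysosomal protein that many cell types make, which was at 249 ± 3.50 CPM with HT-DNA and 343 ± 22.1 CPM with HT-DNA+AOA. Of the fibroblast markers, 6 fell and 1 rose with AOA, and 6 rose and 1 fell with Asp, where 25.5% of all genes rose and 26.5% fell with AOA, and 28.3% rose and 26.4% fell with Asp. Epithelial markers summed to 1.13 to 3.43 CPM and endothelial markers to 3.02 to 7.09 CPM per library. The part of these markers in the chemokine results was not tested.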

How the data were processed

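RNA of 12 L929 libraries was measured. The values were taken from the deposited table, which holds the authors' estimated counts per gene, with the aligner, counter, strand setting and genome build not given in the sources used. Gene lengths are those of the same table. Estimated counts were rounded to whole numbers. In R 4.3.3 with edgeR 4.0.16, genes were filtered with filterByExpr (minimum count 10, minimum total 15), libraries were scaled with TMM factors (0.954 to 1.05), and all 12 libraries were fitted with a term per group and robust quasi-likelihood, with 8 residual degrees of freedom. Replicate pairs differed by more than sampling noise (chi-square per degree of freedom 2.15 to 7.96) and were kept as distinct libraries. Counting intervals are exact conditional binomial intervals at 95% and, like the floor of 3 counts, cover counting error only. Ratios within libraries were tested with exact permutation tests over libraries. On simulated data of 14694 genes the fit recovered 76.1% of the 67 genes changed 2-fold for HT-DNA+AOA against HT-DNA. It called 0.0910% of 14289 unchanged genes. The simulation left most genes unchanged, while 7646 were called in the data, so its rates need not hold for the real calls.

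The members and the gene lists were chosen with earlier results of these data known. The 6 members were named in every comparison. Of each other list, the called genes with the largest absolute log2 fold change, up to 3 per list and comparison, and every tested gene of a list with 5 or fewer tested were named. Values of such genes are printed for the 3 stepwise comparisons (HT-DNA against mock, HT-DNA+AOA against HT-DNA, HT-DNA+AOA+Asp against HT-DNA+AOA). Nearest patterns used log2 CPM with a prior count of 2. The alternatives tried were other scaling, filters, rounding and robustness, a fit of 2 groups alone, DESeq2 1.42.0, a prior count of 2, a replicate block and each library left out in turn. Promoters came from RefSeq (GRCm38.p6).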

Additional observations from a re-analysis of the deposited data

How the results depend on the processing

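The calls of the members with HT-DNA, with AOA, with Asp and for HT-DNA+AOA against mock did not change in number under any alternative, leaving out each library included. Ccl20 is counted in these numbers, although in the main fit it passed the filter only through the HT-DNA+AOA group. For HT-DNA+AOA+Asp against HT-DNA, the members called went from 1 to 2 without a filter on low counts, in a fit of these 2 groups alone and with DESeq2, and ranged from 1 to 2 when single libraries were left out, since Ccl2 was then called lower. HT-DNA+AOA replicates 1 and 3 were the libraries concerned. All genes called in that comparison ranged from 1689 to 3077, with 1712 without HT-DNA replicate 1, 1802 without HT-DNA+AOA+Asp replicate 2 and 1728 without HT-DNA+AOA+Asp replicate 3. Against mock, the members called with Asp ranged from 3 to 4. All genes called in that comparison ranged from 4055 to 5158 when single libraries were left out. The causes were not tested.

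Directions turned only in values that were not called, when a library was left out. For HT-DNA against mock the ranges of log2 fold change were -0.046 to 0.046 for Cxcl1, -0.57 to 0.21 for Ccl3, -0.39 to 0.15 for Ccl9 and -0.12 to 0.42 for Ackr3. For HT-DNA+AOA against HT-DNA the range was -0.021 to 0.14 for Ccl9, and for HT-DNA+AOA+Asp against HT-DNA it was -1.12 to 0.19 for Ccl20. With a prior count of 2 the fold changes of Ccl20 were 4.08 with AOA and -4.36 with Asp.

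Same-numbered replicates did not deviate together: the correlation of their deviations was -0.15 to 0.046, with 0 of 18 pairs over 0.1. With a replicate block the members called were 2, 5, 5, 1, 5 and 3 in the 6 comparisons, as without it. Each count of 5 includes Ccl20, which passed the filter only through HT-DNA+AOA and adds nothing to these counts. All genes called for HT-DNA+AOA against HT-DNA were 7377 in place of 7646, of 14694 tested.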

Other observations

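Limits: each group holds 3 libraries of a single cell line, at 1 time and 1 dose of each agent, so neither the time course nor a dose response of the chemokines was measured. At 12 or fewer counts in a group, as for Ccl20 outside HT-DNA+AOA, only large changes are detectable. The values are of mRNA, and no secreted protein was measured here.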
